A study of Mus musculus with 10 samples.

Results

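Inguinal fat irradiated at the conventional dose rate was compared with inguinal fat of mice that were not irradiated, in 6 of the 10 total RNA libraries of the series. All 3 libraries titled as CONV irradiation and all 3 titled as not irradiated were taken. Both groups were wild-type C57BL/6J mice, and the fat came from the left hindlimb, with no age in the labels. The CONV group had received 33.3 Gy of electrons from a linear accelerator set to its conventional mode and was sampled 70 days later. The not irradiated group (sham) was sampled at the same time point, and 4 further libraries came from mice given 33.3 Gy in the ultra-high dose rate mode (FLASH). Each result is also given without libraries in which Cr2, a complement receptor of B cells and follicular dendritic cells, exceeded 100 CPM (counts per 1000000 gene counts). That left 5 of the 6 libraries (CONV replicates 1 and 3, sham replicates 1 to 3) and 8 of the 10, called the low-Cr2 set below.

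White adipose tissue stores lipid in adipocytes and also holds progenitors, vessels, nerves and resident macrophages, and it secretes hormones such as leptin. Cytokines of the interleukin-6 family signal through gp130, Janus kinases and the transcription factor STAT3, which induces its own inhibitor SOCS3 together with acute-phase proteins. Ionising radiation is known to activate p53, NF-kB and interferon signalling early, and fibrosis and loss of fat are known late effects in irradiated soft tissue.

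Gene counts ran from 25.5 M to 34.9 M per library in these 6 libraries, with a median of 31.2 M. The floor for detection was 3 counts, or 0.0859 to 0.118 CPM by library, and takes only counting error into account. Expression is given as CPM scaled by TMM, a scaling between libraries. Adipoq, the defining hormone gene of adipocytes, stood at 1563 to 2102 CPM in sham, at 1292 CPM in CONV replicate 1 and 1566 CPM in replicate 3, with 268 CPM in CONV replicate 2. Cr2 stood at 382 CPM in CONV replicate 2 and 0.544 CPM or less in the other 5, and the lymph node venule gene Glycam1 stood at 144 CPM there and at 0 in all sham libraries. Tissue markers also separated the remaining pair of CONV libraries. Mean log2 CPM of 10 skeletal muscle genes minus its sham mean was 6.35 in CONV replicate 1, -3.39 in CONV replicate 3 and 4.22 in sham replicate 3, the highest of the sham libraries. Their summed level was 1.88 to 2483 CPM in CONV and 12.7 to 743 CPM in sham. Red cell genes lay 4.34, -0.64 and 1.84 from the sham mean in CONV replicates 1 to 3. B and plasma cell genes lay 1.59, 9.54 and 0.34 from it, with summed levels of 33.3, 4266 and 7.58 CPM against 3.03 to 8.40 CPM in sham. T and NK cell genes lay 0.19, 5.36 and 0.56 from it, with sham libraries at -0.36 to 0.50. In bulk tissue, fewer cells of a type and less RNA per cell cannot be told apart. The labels do not say that libraries of a group came from separate mice, and each p-value therefore covers only the spread of these samples, which may be technical.

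Card14, Socs3, Prg4, Il4ra and Vmp1 rose in CONV in the low-Cr2 set, and no gene passed with all libraries. Genes with an adjusted p below 0.05 in edgeR's quasi-likelihood test are said to have passed. In the low-Cr2 set 6 of 15252 genes passed (0.0393%), 5 as higher (0.0328%) and 1 as lower (0.00656%), with 2022 (13.3%) at an unadjusted p under 0.05. With all libraries 0 of 15266 genes passed (0%, lowest adjusted p 0.607), while 889 (5.82%), 528 higher and 361 lower, had an unadjusted p under 0.05, and DESeq2 called 66. DESeq2 called 661 genes in the low-Cr2 set (4.35%), 381 higher (2.51%) and 280 lower (1.84%) of 15198, and it is named wherever its calls are used. The edgeR calls were sensitive to single libraries: 0 genes passed when any 1 sham library was left out, 0 when the FLASH libraries did not enter the estimate of the spread, 1134 without CONV replicate 1 and 138 without CONV replicate 3. Of 15077 genes tested in both sets, 347 were higher and 310 lower with an unadjusted p under 0.05 in both and no overlap among the 6 libraries. The low-Cr2 libraries are part of both sets, so the 2 tests are not independent. The plot of fold changes against p shows the genes that passed at the top, among the 78 higher and 29 lower genes with an adjusted p under 0.1.

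**Figure D1:**
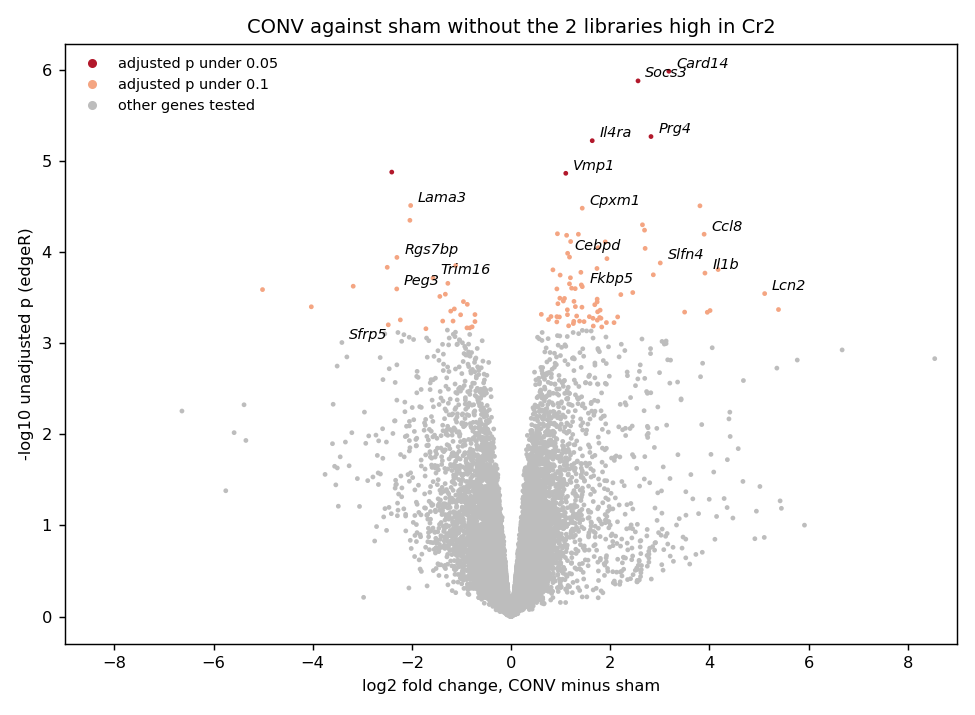
Each point is 1 of the 15252 genes tested in the low-Cr2 set, with its log2 fold change (CONV minus sham) on the x axis and -log10 of the unadjusted edgeR p on the y axis. Dark red points have an adjusted p under 0.05 (6 genes), light orange points have one under 0.1, and grey points are the other genes; named points are discussed in the text.

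Socs3, the STAT3-induced inhibitor of cytokine receptors, stood at 7.17, 7.39 and 7.77 CPM in sham (replicates 1 to 3, the order used throughout) and at 38.6, 53.4 and 50.4 CPM in CONV. All 3 CONV libraries lay above all 3 sham libraries, the Cr2-rich one included. The log2 fold change was 2.56 ± 0.20 (SE) in the low-Cr2 set (edgeR adjusted p = 0.0100) and 2.67 ± 0.63 with all libraries (adjusted p = 0.607). FLASH replicate 3, the other Cr2-rich library, held 35.6 CPM, and the part of lymph node content in the level of CONV replicate 2 was not tested. Because Socs3 is a textbook STAT3 target, the window before its RefSeq start is shown with the letters of a STAT site in capitals. The sequences here are the 250 bases before the RefSeq start on GRCm38.p6, read 5′ to 3′ on the gene's strand, and Steap4, a STAT3-responsive metalloreductase of adipocytes described with the acute-phase genes, is set beside it.
Socs3 (chr11:117969367-117969616, minus strand): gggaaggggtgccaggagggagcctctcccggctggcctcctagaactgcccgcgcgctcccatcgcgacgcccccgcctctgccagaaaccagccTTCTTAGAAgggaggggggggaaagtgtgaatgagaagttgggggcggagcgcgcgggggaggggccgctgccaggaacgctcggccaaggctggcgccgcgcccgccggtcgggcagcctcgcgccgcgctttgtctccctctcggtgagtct
Steap4 (chr5:7960222-7960471, plus strand): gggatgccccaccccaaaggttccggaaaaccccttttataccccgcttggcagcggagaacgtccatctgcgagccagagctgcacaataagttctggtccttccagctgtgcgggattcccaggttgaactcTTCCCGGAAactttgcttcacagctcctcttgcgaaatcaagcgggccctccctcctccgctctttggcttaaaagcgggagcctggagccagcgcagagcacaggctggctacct
The capitals mark TTCNNNGAA, a palindrome that reads the same on both strands. It lies at position -154 from the RefSeq start in Socs3 and -116 in Steap4. The Socs3 window lies inside the span that GENCODE M21 gives this gene (chr11:117966079-117970047, minus strand). It is therefore not the sequence before the GENCODE start, and which start is used in this fat was not tested. These letters occurred in the window of 8.13% of 27025 genes, in 1 of 18 genes of the interleukin-6 and STAT3 list with a window (Socs3) and in 2 of 14 acute-phase genes (Steap4 and Itih4). A match describes letters and not binding.

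Most other members of the interleukin-6 and STAT3 list had higher values in CONV, and none of them passed in edgeR. Of its 20 genes tested in the low-Cr2 set 17 had positive log2 fold changes (85%) with a median of 0.41, beside 51.3% and 0.01 over all genes. CONV lay above sham without overlap in 9 of the 20, beside 11.9% of all genes. With all libraries 19 of 20 were positive with a median of 0.58, beside 56.9% and 0.08 over all genes, and 5 of 20 were higher without overlap, beside 8.58%. DESeq2 called 7 of the 20 higher in the low-Cr2 set (all genes 2.51%). The list mean minus its sham mean was 0.51, 1.01 and 0.76 in CONV replicates 1 to 3. It was 1.02 in the Cr2-rich FLASH replicate 3 and -0.07 to 0.04 in the other FLASH libraries. The transcription factor Cebpd, a driver of acute-phase genes, stood at 11.6, 10.6 and 8.47 CPM in sham and 23.0, 9.65 and 22.7 CPM in CONV. Its log2 fold change in the low-Cr2 set was 1.14 ± 0.16 (edgeR adjusted p = 0.0747). Exons of Cebpd overlap Spidr on the opposite strand, and the sources used here do not give the strand setting of the counting.

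Bcl3, an atypical IkB protein that acts with NF-kB subunits in the nucleus, stood at 5.35, 6.80 and 8.03 CPM in sham and at 16.1, 44.7 and 44.4 CPM in CONV. The log2 fold change was 2.15 ± 0.38 (edgeR adjusted p = 0.0924). The kinase gene Pim1 ran from 8.46 to 13.3 CPM in sham and stood at 21.3, 91.6 and 56.8 CPM in CONV, and the AP-1 gene Junb from 9.65 to 15.1 CPM against 28.2, 37.8 and 35.8 CPM. All 3 CONV libraries lay above all sham libraries for Bcl3, Pim1 and Junb. Stat3 itself ran from 161 to 180 CPM in sham and stood at 220, 210 and 342 CPM in CONV (low-Cr2 log2 fold change 0.72 ± 0.19), with no overlap. The ligand Il6 was near the floor in sham (0.121, 0.130 and 0.134 CPM) and stood at 0.961 and 0.993 CPM in CONV replicates 1 and 3 and at 0.101 CPM in CONV replicate 2. The receptor chains Il6ra, Il6st and Lifr had low-Cr2 log2 fold changes of -0.21, 0.32 and 0.23 with overlapping groups, and the inhibitor Socs1 had -0.26.

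Of the other 4 genes that rose, Card14 and Prg4 were low in CONV replicate 2 and Il4ra and Vmp1 were not. On mm10 (GENCODE M21) the 5 genes are protein-coding, Socs3 at chr11:117966079-117970047, Card14 at chr11:119307768-119345375, Prg4 at chr1:150449412-150466165, Il4ra at chr7:125552120-125579474 and Vmp1 at chr11:86583865-86683836. Card14, a CARD scaffold that activates NF-kB, stood at 2.55, 2.64 and 1.95 CPM in sham and at 20.5, 0.670 and 23.4 CPM in CONV. CONV replicates 1 and 3 lay above all 3 sham libraries and the Cr2-rich CONV library below them, a mean fold of 9.07 in the low-Cr2 set. The Card14 log2 fold change was 3.18 ± 0.24 there (edgeR adjusted p = 0.0100), against 2.64 ± 1.13 with all libraries (adjusted p = 0.607). Prg4, which encodes the lubricating glycoprotein lubricin, stood at 2.10, 2.64 and 2.15 CPM in sham and 19.9, 1.41 and 12.9 CPM in CONV, with CONV replicate 2 again below all sham libraries (2.82 ± 0.26, adjusted p = 0.0228). Exons of Card14 and Prg4 overlap Sgsh and Tpr on the opposite strand.

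Il4ra and Vmp1 were high in all 3 CONV libraries. Il4ra, the signalling chain of the interleukin-4 and interleukin-13 receptors, stood at 40.3, 38.9 and 42.7 CPM in sham and 104, 184 and 152 CPM in CONV. Its fold in the low-Cr2 set was 3.11 (log2 1.64 ± 0.15, edgeR adjusted p = 0.0228). Vmp1, a membrane protein needed for autophagosome formation, stood at 62.6, 61.1 and 72.8 CPM in sham and 138, 100 and 147 CPM in CONV (1.10 ± 0.12, adjusted p = 0.0346). Limma voom gave Vmp1 an adjusted p of 0.0520 in that set. Exons of Vmp1 overlap the microRNA gene Mir21a on the same strand, and the part of Mir21a transcripts in the Vmp1 counts was not tested. Exons of Il4ra overlap Gm44876 on the opposite strand. In the autophagosome list 11 of 23 members, Vmp1 included, were positive in the low-Cr2 set (all genes 51.3%) with a median of -0.03. Vmp1 was the only 1 of the 23 that passed in edgeR (all genes 0.0393%) or that DESeq2 called (all genes 4.35%).

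**Figure D2:**
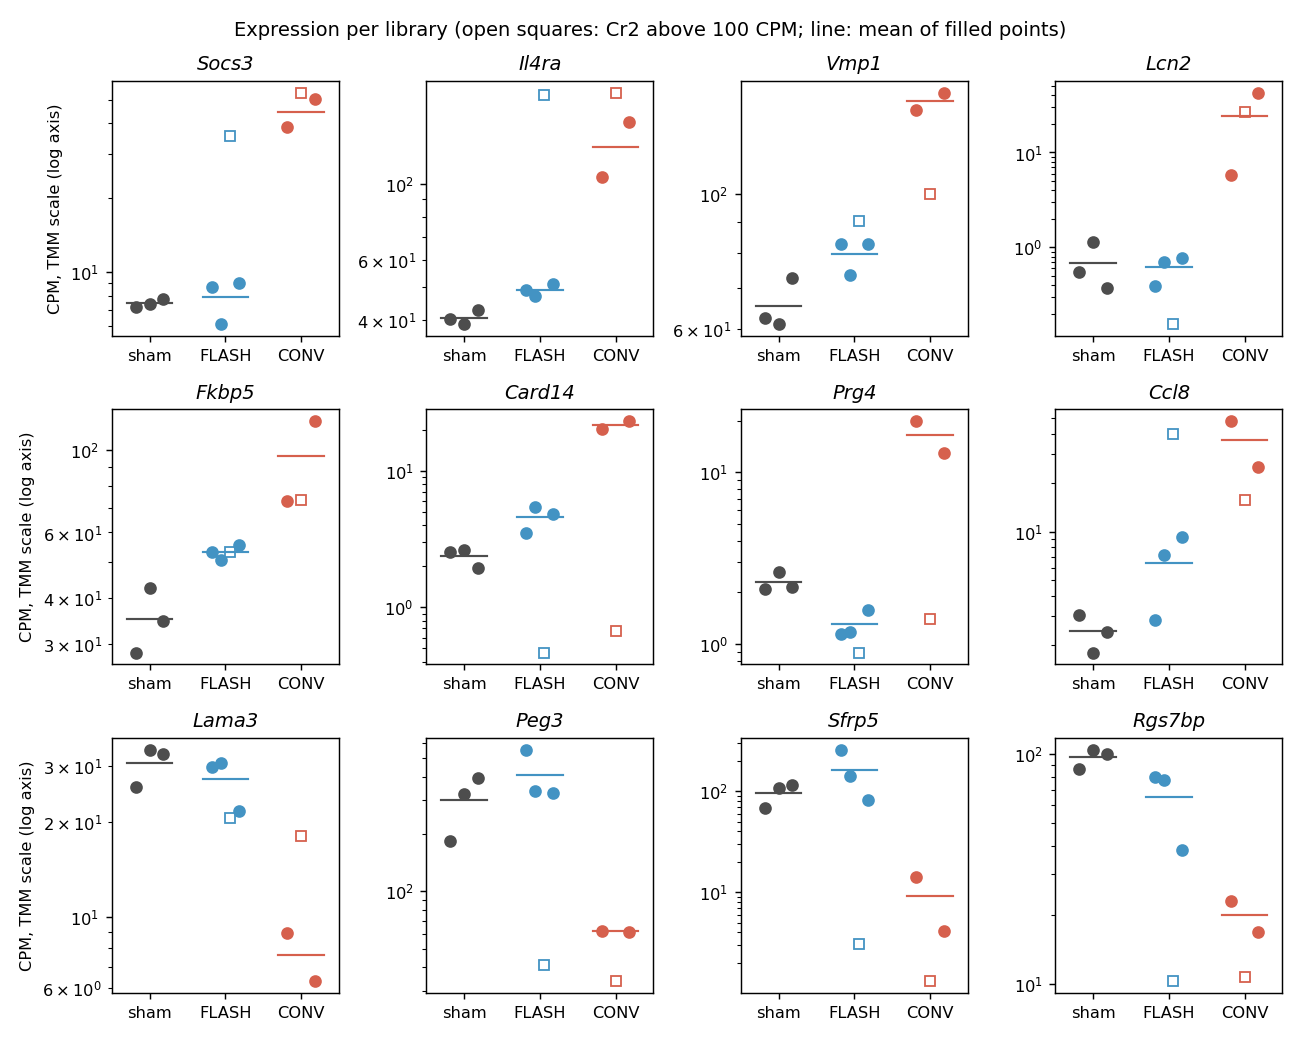
CPM on a logarithmic y axis for 12 genes in each library, grouped on the x axis into sham, FLASH and CONV; filled circles are libraries of the low-Cr2 set, open squares the Cr2-rich FLASH replicate 3 and CONV replicate 2, and lines the means of the filled circles. In Socs3, Il4ra, Vmp1, Lcn2, Fkbp5 and Ccl8 all 3 CONV libraries lie above all sham libraries, whereas in Card14 and Prg4 the open CONV square lies below them; in Lama3, Peg3, Sfrp5 and Rgs7bp all CONV libraries lie below sham.

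Acute-phase genes had the highest values in CONV replicate 3. All 15 tested members had positive low-Cr2 log2 fold changes with a median of 1.51, 11 of 15 lay above sham without overlap (all genes 11.9%), and DESeq2 called 9 of 15 higher (all genes 2.51%). The list mean lay 0.92, -0.47 and 2.66 from the sham mean in CONV replicates 1 to 3, with sham libraries at -0.35 to 0.23. With all libraries 14 of 15 were positive with a median of 1.31, 3 of 15 lay above sham without overlap (all genes 8.58%), and the median was 0.05 when CONV replicate 3 was left out of that set. No member passed in edgeR in either set (all genes 0.0393% in the low-Cr2 set and 0% with all libraries).

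Lcn2, a secreted protein that binds bacterial siderophores, stood at 0.547, 1.14 and 0.370 CPM in sham and at 5.76, 26.9 and 42.7 CPM in CONV. It was higher in every CONV library, with a log2 fold change of 5.11 ± 0.83 in the low-Cr2 set (edgeR adjusted p = 0.0891) and 5.19 ± 0.90 with all libraries. Saa3, a serum amyloid A made in inflamed fat, stood at 0.395, 0.293 and 0.0336 CPM in sham and 0.961, 1.24 and 19.7 CPM in CONV, so the high level was that of CONV replicate 3. The haemoglobin-binding protein gene Hp stood at 675, 1089 and 687 CPM in sham and 1564, 134 and 6844 CPM in CONV. The protease inhibitor Serpina3n followed the same order, with 243 to 535 CPM in sham and 750, 103 and 1484 CPM in CONV. For Hp and Serpina3n the Cr2-rich CONV library was the lowest of the 6 and CONV replicate 3 the highest.

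Steap4 stood at 820, 908 and 878 CPM in sham and 1459, 123 and 1881 CPM in CONV, a low-Cr2 log2 fold change of 0.92 ± 0.16 (edgeR adjusted p = 0.0924). Its log2 fold change with all libraries was 0.41 ± 0.84, and turned to -0.14 without CONV replicate 3 and to -0.31 in limma voom. Metallothioneins, which bind zinc and copper, had the same library order: Mt2 stood at 5.71 to 8.02 CPM in sham and 16.9, 3.85 and 137 CPM in CONV, and Mt1 at 47.8 to 56.4 CPM against 74.8, 16.4 and 290 CPM. Orm1, which encodes orosomucoid, did not differ beyond its spread (0.11 ± 0.58).

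Of the 21 NF-kB genes tested in the low-Cr2 set, 13 had positive log2 fold changes (all genes 51.3%) with a median of 0.15. With all libraries 20 of 21 were positive (all genes 56.9%) with a median of 0.71. The list mean minus its sham mean was 0.48, 1.69 and 0.34 in CONV replicates 1 to 3, and 1.77 in FLASH replicate 3. DESeq2 called 4 of 21 higher in the low-Cr2 set (all genes 2.51%), namely Card14, Il1b, Chuk and Nfkbiz. Il1b, the gene of the cytokine interleukin-1 beta, stood at 0.243, 0.0976 and 0.168 CPM in sham and 3.81, 6.87 and 1.47 CPM in CONV (3.91 ± 0.59, edgeR adjusted p = 0.0800). All CONV libraries lay above sham, and so did FLASH replicate 3 at 4.63 CPM, while the other FLASH libraries held 0.183 to 0.394 CPM. Exons of Il1b overlap the antisense gene Il1bos.

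Interleukin-4 and interleukin-13 themselves were at or near the floor (0.195 CPM or less for Il4 and 0.0672 CPM or less for Il13 in sham, 0.402 and 0.0640 CPM at most in CONV). Of the 11 genes of this list tested, 7 were positive in the low-Cr2 set (all genes 51.3%) with a median of 0.71. DESeq2 called Il4ra, Il33 and Chil3 higher there (all genes 2.51%). The alarmin Il33 stood at 4.74, 14.1 and 6.05 CPM in sham and 29.8, 38.1 and 26.7 CPM in CONV, with no overlap. Its low-Cr2 log2 fold change was 1.75 ± 0.44 (edgeR adjusted p = 0.162). Retnla, a marker of macrophages exposed to interleukin-4, stood at 120 to 195 CPM in sham and 244, 26.4 and 24.9 CPM in CONV, on both sides of the sham range. Stat6, the transcription factor of this pathway, had -0.34 ± 0.17.

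Ccl8, a ligand of CCR2 and CCR8, stood at 3.07, 1.79 and 2.42 CPM in sham and at 47.9, 15.6 and 25.2 CPM in CONV. Its low-Cr2 log2 fold change was 3.89 ± 0.51 (edgeR adjusted p = 0.0622), and the CONV minus FLASH difference in that set was 2.5 ± 0.48 (adjusted p = 0.118). Ccl12 stood at 0.759, 0.293 and 0.403 CPM in sham and 3.71, 1.94 and 2.32 CPM in CONV. Ccl6 and Ccl9 were high in CONV replicates 1 (250 and 231 CPM) and 3 (122 and 98.6 CPM) against 39.2 to 61.2 CPM in sham, and low in replicate 2 (40.1 and 27.2 CPM). DESeq2 called these 4 of the 17 tested chemokines in the low-Cr2 set, all higher (all genes 2.51%). Ccl2, Cxcl9 and Ccl5 had low-Cr2 log2 fold changes of 0.28, -0.25 and 0.24 with overlapping groups. The list median was 0.31 in the low-Cr2 set and 0.56 with all libraries, beside 0.01 and 0.08 over all genes. Cxcl13, a B cell chemokine placed in the lymph node list, stood at 3.13, 3.06 and 2.59 CPM in sham and 10.7, 124 and 8.42 CPM in CONV. All CONV libraries lay above sham, with a log2 fold change of 4.03 with all libraries and 1.69 ± 0.37 in the low-Cr2 set, where DESeq2 called it higher, and FLASH replicate 3 held 75.4 CPM.

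Macrophage genes all had positive fold changes, with the highest levels in CONV replicate 1. In each set 18 of 18 were positive, with medians of 0.95 in the low-Cr2 set and 0.80 with all libraries, and 7 of 18 lay above sham without overlap in the low-Cr2 set (all genes 11.9%) and 3 of 18 with all libraries (all genes 8.58%). The list mean lay 1.44, 0.29 and 0.33 above the sham mean in CONV replicates 1 to 3, and the summed level was 1088 to 1327 CPM in sham and 3259, 1988 and 1230 CPM in CONV. When CONV replicate 1 was left out of all libraries the median was 0.26. The Fc receptor gene Fcgr1 stood at 4.59, 3.68 and 2.15 CPM in sham and 12.3, 6.67 and 11.3 CPM in CONV (low-Cr2 log2 fold change 1.75 ± 0.30, edgeR adjusted p = 0.0924).

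Fcgr2b, the inhibitory Fc receptor, stood at 27.4, 30.2 and 26.8 CPM in sham and 134, 69.7 and 58.8 CPM in CONV. The lipopolysaccharide co-receptor Cd14 stood at 9.93 to 11.3 CPM in sham and 19.1, 7.91 and 40.1 CPM in CONV. Of the 18 macrophage genes, DESeq2 called Fcgr1, Fcgr2b, Fcgr3 and Cd14 higher in the low-Cr2 set (all genes 2.51%). The resident macrophage receptor genes Mrc1 and Cd163 were high in CONV replicate 1 (632 and 394 CPM) and within or near the sham range in CONV replicate 3 (239 and 98.6 CPM, with sham at 223 to 276 and 75.8 to 121 CPM). Genes of lipid-associated macrophages had no common direction (5 of 12 positive, median -0.02). Trem2 of that list stood at 1.07 to 1.58 CPM in sham and 6.21, 1.71 and 2.35 CPM in CONV.

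Neutrophil transcripts were sparse in fat. Of 10 genes in the files 4 were tested, all with positive fold changes in both sets. Of these, S100a8 and Mmp9 did not differ beyond their spread in the low-Cr2 set (DESeq2 log2 fold changes 0.41 ± 0.93 and 0.23 ± 0.63). The summed level of the 10 genes was 32.1 to 32.9 CPM in sham and 77.7, 389 and 19.3 CPM in CONV, so CONV replicate 3 lay below sham. The receptor gene Csf3r stood at 3.43, 3.06 and 3.23 CPM in sham and 13.2, 46.3 and 8.97 CPM in CONV, with no overlap (low-Cr2 log2 fold change 1.76 ± 0.24, edgeR adjusted p = 0.0693). The granule genes Ngp and Ltf had a count of 0 in all sham libraries and in CONV replicate 3, and stood at 68.1 and 45.5 CPM in CONV replicate 2.

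Of the 16 complement genes tested, 13 were positive in each set, beside 51.3% of all genes in the low-Cr2 set and 56.9% with all libraries. The medians were 0.74 in the low-Cr2 set and 0.50 with all libraries. DESeq2 called 6 higher in the low-Cr2 set (all genes 2.51%). Without CONV replicate 1 the median with all libraries was 0.01. The list mean lay 0.95, -0.49 and 0.10 from the sham mean in CONV replicates 1 to 3. C3, the central component, stood at 1364, 1558 and 1313 CPM in sham and 2841, 1876 and 3031 CPM in CONV. It was higher in all 3 CONV libraries (low-Cr2 log2 fold change 1.04 ± 0.24, edgeR adjusted p = 0.138), and its CONV minus FLASH difference was 1.30 ± 0.24. C4b stood at 1361 to 1922 CPM in sham and 2954, 612 and 3245 CPM in CONV. Of the inhibitors, Serping1 had -0.20 and Cd55 -0.23 with overlapping groups.

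Among interferon-stimulated genes the oligoadenylate synthases and Stat2 were higher in every CONV library, while the Ifit genes overlapped with sham. Of 28 tested, 23 had positive log2 fold changes in the low-Cr2 set with a median of 0.56, and 27 of 28 with a median of 1.04 with all libraries. In each set 12 of 28 lay above sham without overlap, beside 11.9% of all genes in the low-Cr2 set and 8.58% with all libraries, and DESeq2 called 10 higher in the low-Cr2 set (all genes 2.51%). The list mean lay 0.43, 1.66 and 0.85 above the sham mean in CONV replicates 1 to 3, with sham libraries at -0.22 to 0.37 and FLASH replicate 3 at 1.70.

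Oas3, a synthase of the RNase L pathway, stood at 2.64, 1.30 and 1.31 CPM in sham and 9.25, 56.2 and 10.3 CPM in CONV (low-Cr2 log2 fold change 2.45 ± 0.40, edgeR adjusted p = 0.0891). Oas2 stood at 12, 13.2 and 9.24 CPM in sham and 31.3, 45.1 and 49.7 CPM in CONV (1.80 ± 0.31). Oas1g stood at 1.34, 0.944 and 1.14 CPM in sham and 3.33, 3.59 and 4.67 CPM in CONV (1.79 ± 0.32), a close paralog of Oas1a with which it may share reads. All CONV libraries lay above all sham libraries for these 3 genes. Stat2, a subunit of the interferon-activated factor ISGF3, stood at 55.9 to 59.6 CPM in sham and 77.8, 161 and 119 CPM in CONV, and Irf7 at 15.5 to 26.5 CPM against 32.6, 84.1 and 56.3 CPM. In the low-Cr2 set Ifit1, Ifit2 and Ifit3 had -0.01, -0.40 and -0.16, the RNA sensors Ddx58 and Ifih1 0.01 and 0.00, and Cmpk2 -0.23, all with overlapping groups.

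The promoters of 2 of the higher synthases are shown because the interferon response element is the defining sequence of this group, with its letters in capitals (250 bases before the RefSeq start, GRCm38.p6).
Oas3 (chr5:120777660-120777909, minus strand): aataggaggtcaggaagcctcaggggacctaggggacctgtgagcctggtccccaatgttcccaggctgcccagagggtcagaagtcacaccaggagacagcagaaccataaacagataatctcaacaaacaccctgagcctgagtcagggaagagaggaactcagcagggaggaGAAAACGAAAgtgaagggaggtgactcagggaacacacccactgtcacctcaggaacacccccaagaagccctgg
Oas1g (chr5:120887614-120887863, minus strand): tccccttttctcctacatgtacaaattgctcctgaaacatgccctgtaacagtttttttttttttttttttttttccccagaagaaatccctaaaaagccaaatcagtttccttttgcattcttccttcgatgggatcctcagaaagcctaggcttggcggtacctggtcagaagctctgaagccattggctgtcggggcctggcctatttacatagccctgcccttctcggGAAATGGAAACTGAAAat
The capitals mark GAAANNGAAA, searched on both strands; Oas1g holds 2 overlapping copies at positions -18 and -12 and Oas3 holds 1 at -75. The letters GAA are shared with the STAT motif, so the motifs can overlap. GAAANNGAAA occurred in the windows of 9 of 21 interferon-stimulated genes (42.9%) and of 3.46% of all genes with a window. The 9 were Stat2, Isg15, Ifit1, Ifit3, Oas1a, Oas1g, Oas3, Rsad2 and Bst2, so genes with the letters stood both among those higher in CONV without overlap (Stat2, Oas1a, Oas1g, Oas3, Bst2) and among those with overlapping groups (Isg15, Ifit1, Ifit3, Rsad2).

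**Figure D3:**
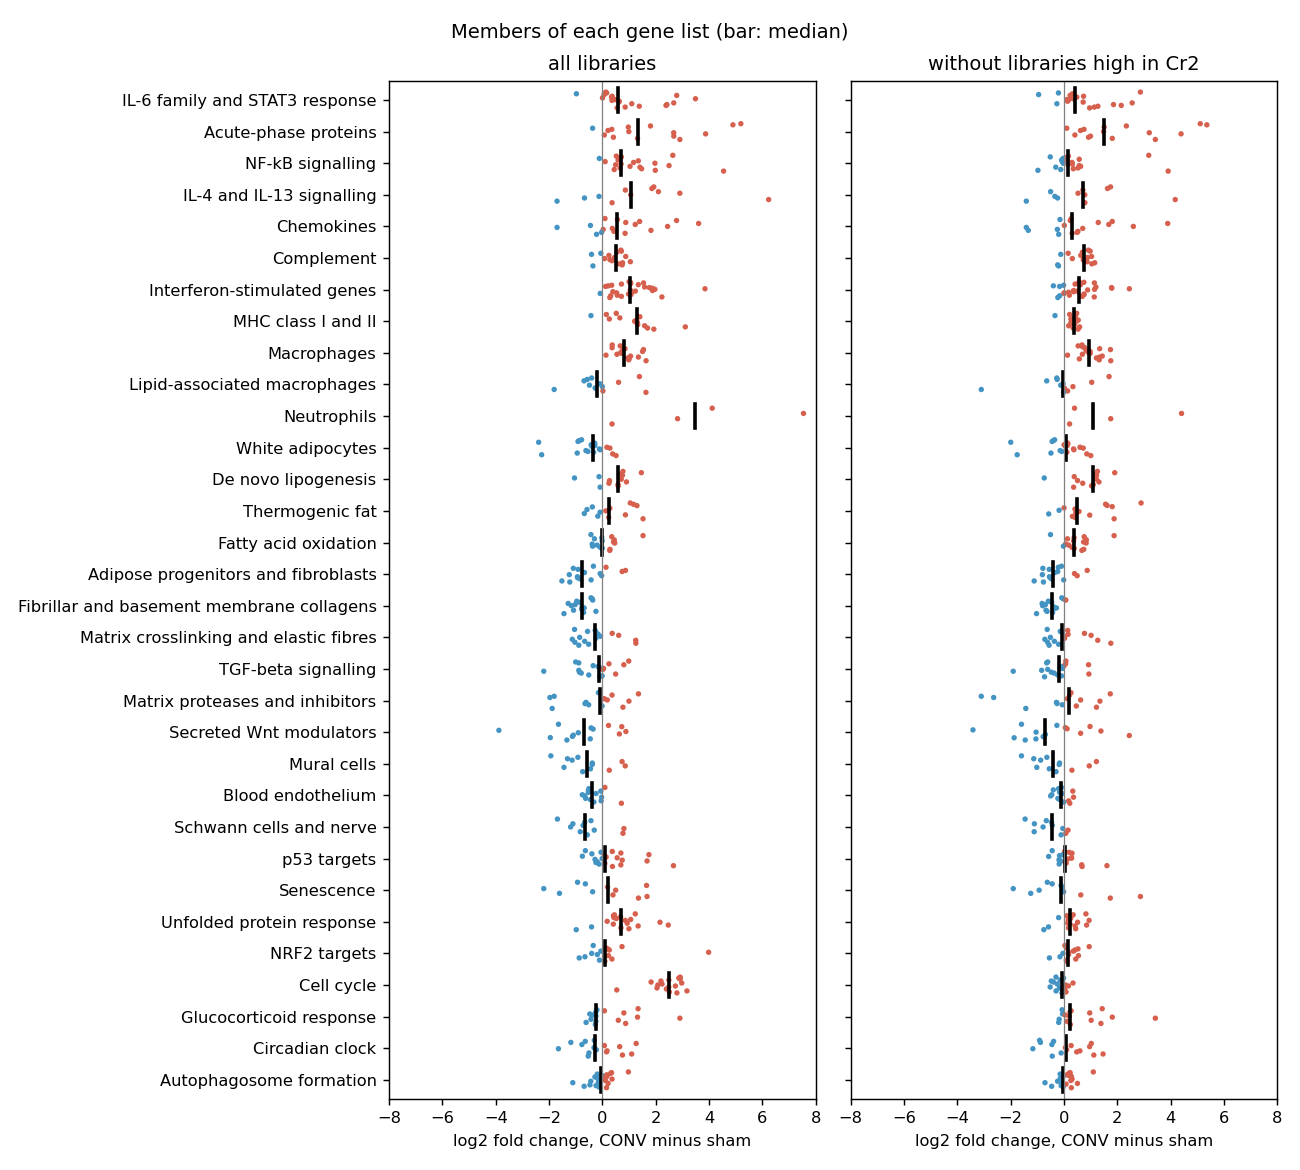
Each point is a gene of the list named on the y axis, with its log2 fold change (CONV minus sham) on the x axis, red where positive and blue where negative; black bars are list medians, on the left with all libraries and on the right in the low-Cr2 set. The medians of the acute-phase, macrophage and interleukin-6 lists lie above 0 in both panels and that of the collagens below 0 in both, while the cell cycle median lies at 2.49 with all libraries and at -0.07 in the low-Cr2 set.

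Several further genes had higher CPM in all 3 CONV libraries than in any sham library. Slfn4, a Schlafen gene of monocytes, stood at 0.729, 0.423 and 1.04 CPM in sham and 4.00, 46.2 and 7.98 CPM in CONV (low-Cr2 log2 fold change 3.01 ± 0.44, edgeR adjusted p = 0.0795). Ms4a6d, a tetraspan gene of macrophages, stood at 3.74, 5.24 and 3.87 CPM in sham and 17.4, 10.1 and 11.5 CPM in CONV (1.74 ± 0.29, adjusted p = 0.0924). Spon1, an extracellular matrix protein of the spondin family, stood at 17.5, 19.5 and 14.1 CPM in sham and 48.2, 29.3 and 43.2 CPM in CONV (1.41 ± 0.21, adjusted p = 0.0800). Neither the Cr2-rich nor the muscle-rich CONV library fell into the sham range for these 3 genes.

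Cpxm1, a secreted carboxypeptidase-like protein of preadipocytes, stood at 29.5, 25.9 and 26.1 CPM in sham and 86.4, 49.7 and 62.2 CPM in CONV (1.43 ± 0.17, edgeR adjusted p = 0.0557). Ly6a, the progenitor surface marker Sca-1, stood at 80.2, 87.6 and 77.0 CPM in sham and 150, 142 and 153 CPM in CONV. All 3 CONV libraries lay above sham for Ly6a, which had 0.87 ± 0.19 in the low-Cr2 set and 0.86 ± 0.19 with all libraries. Most other members of the adipose progenitor and fibroblast list had the opposite sign: 13 of 16 were negative in each set, with medians of -0.40 in the low-Cr2 set and -0.76 with all libraries (-1.81 without CONV replicate 1). The list mean minus its sham mean was 0.24, -1.84 and -1.20 in CONV replicates 1 to 3. Igfbp6, which binds insulin-like growth factors, and the matrix gene Smoc2 had low-Cr2 log2 fold changes of -1.12 and -0.77, and Pdgfra, the progenitor receptor, had -0.09 with overlapping groups. Ptpn1, a phosphatase of insulin and cytokine receptors, ran from 38.7 to 40.9 CPM in sham and stood at 72.1, 167 and 81.0 CPM in CONV, and Arid5a, an RNA-binding protein that stabilises Il6 mRNA, from 10.2 to 12.2 CPM against 24.7, 79.3 and 33.7 CPM. FLASH replicate 3 held 138 CPM of Ptpn1 and 88.9 CPM of Arid5a. C2cd2l, a lipid transfer protein at contacts of the endoplasmic reticulum, and Ddi2, a protease of the proteasome stress response, had 1.12 ± 0.15 and 0.53 ± 0.10.

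Genes with lower values in CONV included a laminin, an imprinted gene and membrane regulators, none of them past the threshold in edgeR. Lama3, a laminin subunit, stood at 25.6, 33.7 and 32.6 CPM in sham and 8.93, 18 and 6.29 CPM in CONV (low-Cr2 log2 fold change -2.02 ± 0.24, edgeR adjusted p = 0.0557). Peg3, an imprinted zinc finger gene expressed in adipocytes, stood at 183, 324 and 395 CPM in sham and 61.8, 33.6 and 61.5 CPM in CONV (-2.31 ± 0.37, adjusted p = 0.0854). Rgs7bp, which anchors G protein regulators at the membrane, stood at 85.9, 105 and 99.9 CPM in sham and 23.0, 10.7 and 16.7 CPM in CONV (-2.30 ± 0.33, adjusted p = 0.0748). For Lama3, Peg3 and Rgs7bp no CONV library reached the lowest sham library.

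The talin gene Tln2, which links integrins to actin, and Hspa12a, a member of the heat shock protein family, stood below sham in all 3 CONV libraries and lowest in replicate 2. Tln2 stood at 301, 374 and 362 CPM in sham and 145, 20.5 and 145 CPM in CONV, and Hspa12a at 292, 328 and 259 CPM against 124, 28.8 and 113 CPM. Trim16 stood at 48.7 to 62.8 CPM in sham and 18, 6.50 and 18.8 CPM in CONV. Pla2g5, a secreted phospholipase A2, ran from 7.73 to 17.3 CPM in sham and stood at 2.95, 1.17 and 1.54 CPM in CONV. The potassium channel gene Kcnh2, Ankrd29 and D430019H16Rik had low-Cr2 log2 fold changes of -2.28 ± 0.43, -2.55 ± 0.48 and -3.18 ± 0.50, each with no overlap in either set. Adamts10 and Klhl29 had -1.12 ± 0.16 and -1.44 ± 0.24, and CONV replicate 2 lay within the sham range for Adamts10 (91.1 CPM against 79.3 to 97.6 CPM).

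Of the secreted Wnt modulators 6 of 15 tested were positive in the low-Cr2 set and the median was -0.69. There 5 of 15 lay below sham without overlap, beside 14.2% of all genes (with all libraries 4 of 14, beside 9.11%). DESeq2 called Sfrp5, Wnt5a and Axin2 lower in the low-Cr2 set (all genes 1.84%). Sfrp5, an adipokine that binds Wnt5a, stood at 67.7, 108 and 115 CPM in sham and at 14.2, 1.31 and 4.08 CPM in CONV. The log2 fold change was -3.41 ± 0.67 (edgeR adjusted p = 0.104), and FLASH libraries of the low-Cr2 set held 81.1 to 259 CPM. Wnt5a itself stood at 48.2 to 63.1 CPM in sham and 34.5, 10.8 and 31.0 CPM in CONV. Axin2, a target of beta-catenin, stood at 31.4, 54.6 and 38.4 CPM in sham and 9.09, 18.5 and 21.7 CPM in CONV, and Wnt10b, which restrains adipogenesis, at 3.66 to 7.75 CPM against 2.43, 1.14 and 0.405 CPM. Sfrp1, Sfrp2 and Sfrp4 had 0.98, 0.05 and 0.12 with overlapping groups. Gli2, a transcription factor of Hedgehog signalling, stood at 14.0 to 23.6 CPM in sham and 6.72, 6.77 and 6.99 CPM in CONV.

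No collagen gene passed in edgeR (all genes 0.0393%) or was called by DESeq2 (all genes 4.35%) in the low-Cr2 set. Of 15 tested, 0 were positive with all libraries (median -0.78) and 1 in the low-Cr2 set (median -0.46). The list mean lay -0.10, -2.15 and -0.90 from the sham mean in CONV replicates 1 to 3, and FLASH replicate 3 lay at -2.20. Col1a1 stood at 756, 1116 and 524 CPM in sham and 958, 250 and 572 CPM in CONV, and Col3a1 at 2316 to 3884 CPM against 4440, 605 and 2052 CPM. Both had overlapping groups in the low-Cr2 set (-0.08 ± 0.38 and 0.07 ± 0.38), and the sign of Col1a1 turned without CONV replicate 3 (0.25) and without sham replicate 2 (0.24).

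Of the TGF-beta genes, the receptor and an inhibitor had opposite signs. Tgfbr2, the ligand-binding receptor, stood at 192, 217 and 188 CPM in sham and 378, 275 and 388 CPM in CONV (low-Cr2 log2 fold change 0.92 ± 0.15, edgeR adjusted p = 0.0854). Ldlrad4, an inhibitor of the pathway, stood at 33.4, 35.7 and 29.3 CPM in sham and 19.6, 16.0 and 17.7 CPM in CONV (-0.83 ± 0.16, adjusted p = 0.0976). For both genes all CONV libraries lay on the same side of sham. The ligand Tgfb1 had 0.07 ± 0.25 in the low-Cr2 set and stood at 109 CPM in CONV replicate 2 against 24.7 to 32.9 CPM in sham, and the inhibitor Smad7 and the corepressor Skil had -0.61 and -0.73. Over the 18 genes tested the median was -0.19. Among the members reported here, DESeq2 called Tgfbr2 and Postn higher and Ldlrad4 lower (all genes 2.51% higher and 1.84% lower).

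Among matrix enzymes, the collagen crosslinking hydroxylase Plod2 stood at 14.8, 18.8 and 21.9 CPM in sham and 35.9, 8.68 and 40.0 CPM in CONV. The elastic fibre glycoprotein Emilin1 was higher in all 3 CONV libraries, with 10.6 to 11.8 CPM in sham and 19.9, 24.7 and 34.2 CPM in CONV (1.27 ± 0.21, edgeR adjusted p = 0.0924), whereas Fbln5 stood at 67.9 to 86.5 CPM in sham and 54.7, 10.7 and 45.6 CPM in CONV. Mmp3, the protease stromelysin-1, stood at 20.0, 21.9 and 33.7 CPM in sham and 88.2, 22.4 and 82.1 CPM in CONV. The aggrecanase genes had opposite signs in the low-Cr2 set, Adamts4 with 4.07 to 5.08 CPM in sham and 9.99, 1.81 and 12.4 CPM in CONV and Adamts5 with 1125 to 1704 CPM against 651, 79.7 and 354 CPM. Among 14 matrix proteases and inhibitors, DESeq2 called Adamts4, Mmp3 and Mmp19 higher and Adamts5 lower (all genes 2.51% higher and 1.84% lower).

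Among adipocyte identity genes leptin had the clearest difference and the adipogenic factors overlapped with sham. Of 20 tested in the low-Cr2 set, 12 were positive with a median of 0.09, against 4 of 20 and -0.36 with all libraries, where the list mean lay -2.72 from sham in CONV replicate 2 and -0.33 and 0.16 in replicates 1 and 3. Lep stood at 1304, 2035 and 1141 CPM in sham and 437, 92.6 and 323 CPM in CONV, with no overlap (low-Cr2 log2 fold change -1.99 ± 0.52, edgeR adjusted p = 0.170, DESeq2 adjusted p = 0.00148). Npr3, the natriuretic peptide clearance receptor, stood at 2206, 3226 and 2007 CPM in sham and 1151, 43.4 and 336 CPM in CONV (-1.75 ± 0.51). The lipid droplet genes Plin1 and Plin4 had -0.40 and -0.44, and Adipoq -0.35 ± 0.23. Cfd, which encodes adipsin, stood at 3511 to 5273 CPM in sham and 6628 and 8416 CPM in CONV replicates 1 and 3 (0.72 ± 0.25), and at 1309 CPM in replicate 2. Of the 20 genes, DESeq2 called Lep, Npr3 and Plin1 lower (all genes 1.84%) and Cfd higher (all genes 2.51%) in the low-Cr2 set. Pparg, Cebpa, Lipe and Fabp4 had 0.01, 0.12, 0.06 and 0.14 with overlapping groups.

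Lipid synthesis and thermogenic genes differed among the CONV libraries, with both signs. The lipogenesis mean lay -0.48, -1.75 and 1.78 from the sham mean in CONV replicates 1 to 3, while sham libraries ran from -0.68 to 0.82. In the low-Cr2 set 12 of 13 were positive (all genes 51.3%) with a median of 1.10. There 0 of 13 had non-overlapping groups, beside 11.9% higher and 14.2% lower over all genes. Fasn, the fatty acid synthase gene, stood at 18040, 6793 and 2889 CPM in sham and 5211, 1607 and 38427 CPM in CONV. With CONV replicate 3 left out of all libraries the list median was -1.14, against 0.59 with it. Thermogenic genes followed, with a list mean of -0.37, -1.38 and 1.35 in CONV replicates 1 to 3 and the uncoupling protein Ucp1 at 0, 0.134 and 20.6 CPM against 0.0336 to 3.95 CPM in sham. Neither list had a member that passed in edgeR (all genes 0.0393% in the low-Cr2 set).

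Of the mural cell genes 5 of 12 lay below sham without overlap in each set, beside 14.2% of all genes in the low-Cr2 set and 9.11% with all libraries. Mcam, a pericyte adhesion molecule, stood at 485, 434 and 417 CPM in sham and 225, 45.4 and 221 CPM in CONV (low-Cr2 log2 fold change -1.02 ± 0.18, edgeR adjusted p = 0.0924). Rgs5, a pericyte G protein regulator, stood at 198, 186 and 220 CPM in sham and 105, 51.2 and 118 CPM in CONV (-0.87 ± 0.18). The actin gene Acta2 stood at 88.8, 187 and 92.1 CPM in sham and 52.4, 13.8 and 29.8 CPM in CONV (-1.59 ± 0.40). None of the CONV libraries reached the sham range for these 3 genes. Of the 12 mural genes DESeq2 called these 3 lower in the low-Cr2 set (all genes 1.84%). The other mural genes Pdgfrb, Notch3 and Abcc9 had -0.16, -0.18 and 0.30, and over the 12 the median was -0.42. Endothelial genes had a median of -0.12 over 14. Kdr, the main receptor of VEGF, had -0.40 ± 0.16, and Pecam1 and Cdh5 had -0.09 and -0.20. DESeq2 called 0 of the 14 (all genes 4.35%), and 3 lay below sham without overlap in the low-Cr2 set (all genes 14.2%). Nerve genes had a median of -0.46 over 11, with 0 called by either tool (all genes 4.35% in DESeq2 and 0.0393% in edgeR). Of these 11, 2 lay below sham without overlap in the low-Cr2 set (all genes 14.2%).

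Of 20 p53 targets tested in the low-Cr2 set 12 were positive (all genes 51.3%) with a median of 0.04, and 0 passed in edgeR (all genes 0.0393%). Cdkn1a, which encodes the cell cycle inhibitor p21, stood at 29.8, 29.5 and 20.1 CPM in sham and 24.3, 11.4 and 15.2 CPM in CONV (-0.44 ± 0.45). Mdm2, Ccng1 and Bax had 0.03, 0.19 and 0.30. Pmaip1, a BH3 protein gene, stood at 1.28 to 1.99 CPM in sham and 6.76, 20.5 and 3.16 CPM in CONV. It was the only 1 of 19 targets tested by DESeq2 that was called in the low-Cr2 set (all genes 4.35%). Among the senescence genes reported here, DESeq2 called Il6, Mmp3 and Igfbp7 higher and Igfbp3 lower in the low-Cr2 set (all genes 2.51% higher and 1.84% lower). The list median was -0.11 in that set and 0.19 with all libraries. The tumour suppressor Cdkn2a was near the floor in sham (0.0607 to 0.163 CPM) and stood at 0.128, 1.27 and 0.0736 CPM in CONV. Cell cycle genes had a median of 2.49 with all libraries, 17 of 17 positive, and of -0.07 in the low-Cr2 set, 6 of 17 positive, beside medians of 4.37 and 0.10 for T and NK cell genes and of 1.30 and 0.37 for MHC genes.

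Of the unfolded protein response genes, 15 of 18 were positive in the low-Cr2 set (all genes 51.3%) with a median of 0.24. With all libraries 16 of 18 were positive (all genes 56.9%) with a median of 0.69. CONV lay above sham without overlap in 10 of 18 in the low-Cr2 set (all genes 11.9%) and 11 of 18 with all libraries (all genes 8.58%). The list mean minus its sham mean was 0.23, 1.25 and 0.28 in CONV replicates 1 to 3, and 0.18 in FLASH replicate 3. Dnajb9, an endoplasmic reticulum chaperone, stood at 36, 37.8 and 45.5 CPM in sham and 73.2, 60.7 and 81.8 CPM in CONV (0.94 ± 0.16, edgeR adjusted p = 0.0924), and its CONV minus FLASH difference was 1.07 ± 0.16 (adjusted p = 0.0931). Xbp1, the transcription factor of the IRE1 branch, stood at 136 to 173 CPM in sham and 221, 539 and 341 CPM in CONV. NRF2 targets had a median of 0.17 with 0 of 15 called by either tool (all genes 4.35% in DESeq2 and 0.0393% in edgeR).

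Glucocorticoid-responsive genes were represented by Fkbp5, a chaperone of the glucocorticoid receptor, which stood at 28.4, 42.4 and 34.6 CPM in sham and 72.9, 73.3 and 120 CPM in CONV. The log2 fold change was 1.44 ± 0.23 in the low-Cr2 set (edgeR adjusted p = 0.0854) and 1.34 ± 0.23 with all libraries, and no library overlapped. FLASH libraries lay between the groups at 50.5 to 55.4 CPM. The kinase Sgk1 stood at 35.2 to 47.9 CPM in sham and 91.8, 52.9 and 72.5 CPM in CONV, and the pyruvate dehydrogenase kinase Pdk4 at 66.7 to 136 CPM against 250, 18.7 and 324 CPM. Tsc22d3, Per1 and Klf9 of the same list had -0.07, 0.27 and 0.05. DESeq2 called 5 of 16 higher (Fkbp5, Sgk1, Pdk4, Mt1 and Mt2) in the low-Cr2 set (all genes 2.51%), where 12 of 16 were positive and the median was 0.23. With all libraries the median had the other sign, at -0.23 with 7 of 16 positive, and the list mean minus its sham mean was 0.49, -1.48 and 0.68 in CONV replicates 1 to 3. Without CONV replicate 2 the median was 0.25.

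Clock genes had both signs. The repressor Nr1d1 stood at 355, 295 and 299 CPM in sham and 136, 16.1 and 150 CPM in CONV (low-Cr2 log2 fold change -1.17 ± 0.22, edgeR adjusted p = 0.102), and Cry2 at 97.5 to 98.6 CPM against 72.1, 26.9 and 73.4 CPM. Cry1 stood at 4.91 to 6.17 CPM in sham and 8.68, 17.6 and 15.1 CPM in CONV (1.03 ± 0.24). DESeq2 called these 3 of the 16 clock genes in the low-Cr2 set (all genes 4.35% in either direction). The median of the list was 0.08 in that set and -0.27 with all libraries. The time of day of sampling is not in the labels, and its part in these values was not tested. Arntl stood at 15.8 to 31.3 CPM in sham and 21, 30.2 and 2.87 CPM in CONV, so CONV replicate 3 stood apart from the other CONV libraries. Exons of Nr1d1 overlap Thra on the opposite strand.

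**Figure D4:**
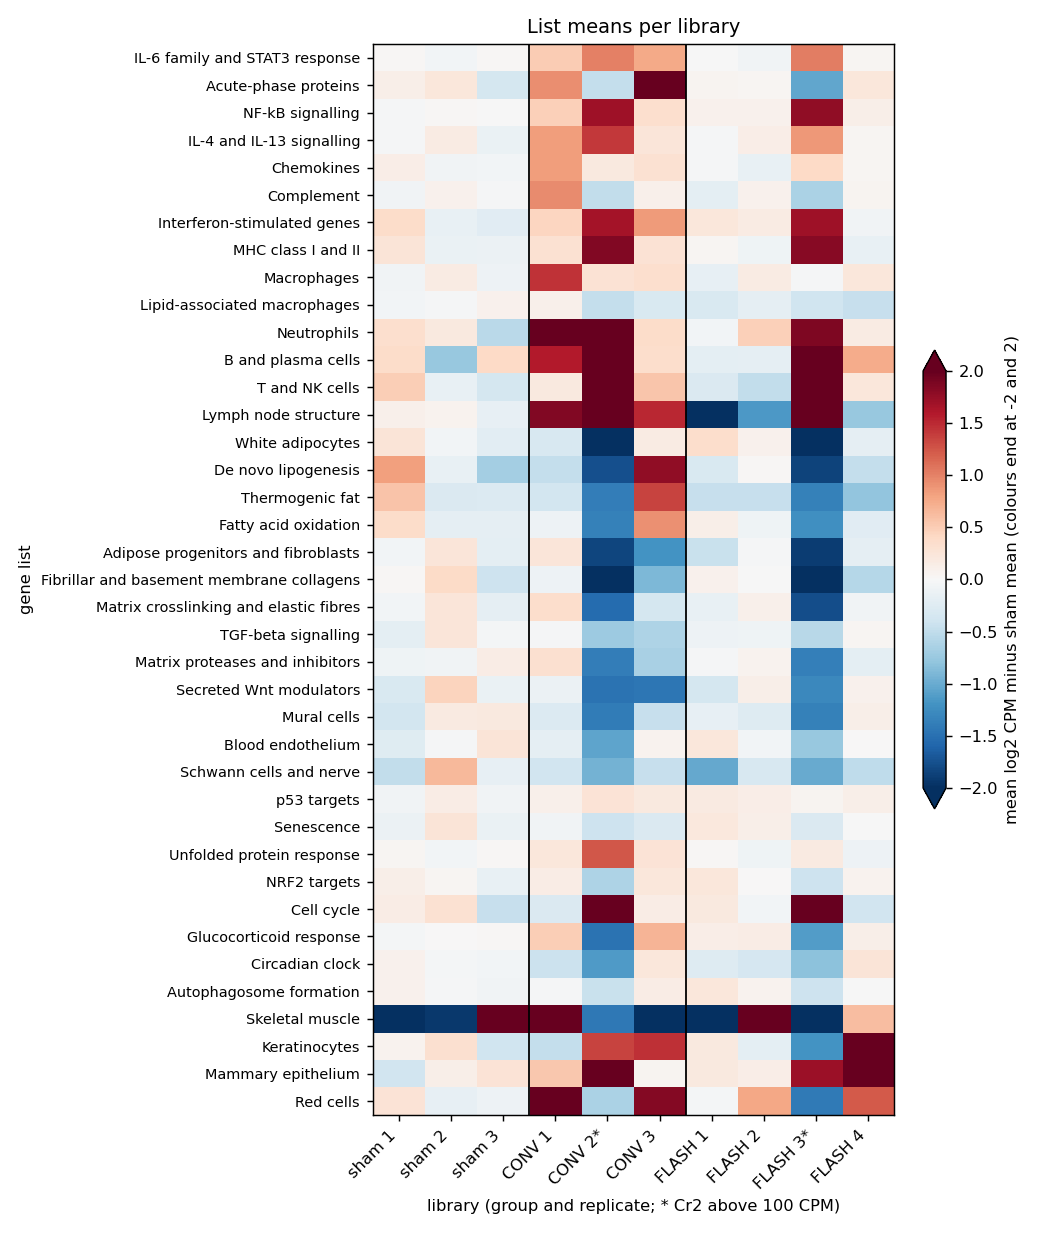
Rows are the 39 gene lists and columns the 10 libraries, sham first, then CONV, then FLASH; colour gives the mean log2 CPM of a list minus its sham mean, from -2 (blue) to 2 (red) with values beyond drawn at the end colours, and stars mark the Cr2-rich libraries. The CONV columns differ from each other: macrophages are at 1.44 in CONV replicate 1, acute-phase genes at 2.66 in CONV replicate 3 and B cell genes at 9.54 in CONV replicate 2.

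The difference between the dose rates was tested for the genes named here in the low-Cr2 set, with 2 of 15252 genes past the threshold (0.0131%). Socs3 stood at 8.66, 6.11 and 8.96 CPM in FLASH replicates 1, 2 and 4, all far below CONV, a CONV minus FLASH log2 difference of 2.48 ± 0.20 (edgeR adjusted p = 0.0126). Prg4 stood at 1.15, 1.17 and 1.58 CPM in those libraries, below every sham library, with a difference of 3.65 ± 0.27 (adjusted p = 0.0126). Card14 stood at 3.51, 5.42 and 4.85 CPM, between sham and CONV (2.24 ± 0.23, adjusted p = 0.0579), and Il4ra at 48.9, 47.0 and 51.1 CPM (1.37 ± 0.15, adjusted p = 0.0673). Vmp1 stood at 82.7, 73.6 and 82.8 CPM (0.83 ± 0.12, adjusted p = 0.0931). Both calls ended when any 1 of the 3 FLASH libraries was left out. This comparison shares the CONV libraries with the comparison against sham.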

How the data were processed

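Total RNA of inguinal fat was sequenced in 10 libraries from a ribosome-depleted stranded kit, all labelled as batch 1. The authors deposited raw counts per gene symbol, and kallisto 0.5.0 and the mm10 build are named, per the submitters' processing notes. The sources used here do not give the aligner, the strand setting or the annotation. The last 5 entries of each file, reads given to no gene (53.7% to 66.7% in the CONV and sham libraries), were left out.

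Gene tests used edgeR 4.0.16 in R 4.3.3, with filterByExpr, TMM, a robust quasi-likelihood fit with 1 mean per group over sham, FLASH and CONV, two-sided contrasts and Benjamini-Hochberg adjustment over all genes tested. The SE is the absolute log2 fold change divided by the square root of F. DESeq2 1.42.0 and limma 3.58.1 (voom) were alternatives, beside other scaling and filters, a replicate block, CONV and sham alone, and leaving out each library. The edgeR steps were tested on data simulated gene by gene from edgeR's own estimate of the spread. That simulation held no tissue content shared across genes, so it cannot show how such content affects the calls.

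Named genes were those past the threshold, up to 10 per direction and set by p (mean log2 CPM of at least 2, groups not overlapping), up to 3 members per list, and a fixed group. Other list members serve as examples and were picked after their values were seen. Members and the 39 lists were chosen with earlier results of these data known. Some genes picked by the rule or held by a list are not reported here. Lists are described by counts and medians, and list means per library use log2 CPM with a prior count of 2. Locations came from GENCODE M21, which holds 95.8% of the symbols, and promoters from RefSeq.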

Additional observations from a re-analysis of the deposited data

Results flagged for a closer look

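For 2 genes the difference between CONV and FLASH itself passed the test (edgeR, in the set without libraries high in Cr2). Socs3 was higher in CONV than in FLASH by 2.48 on the log2 scale, in 2 of 2 CONV libraries against each of 3 FLASH libraries. Prg4 was higher by 3.65 on the log2 scale, in the same libraries. In the Cr2-rich pair, Socs3 stood at 53.4 CPM in CONV replicate 2 and 35.6 CPM in FLASH replicate 3, and Prg4 at 1.41 and 0.888 CPM.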

How the results depend on the processing

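Library content limited the comparison. With all libraries DESeq2 called 66 genes where edgeR called 0, and edgeR called 6 without the libraries high in Cr2 and 1 without FLASH replicate 3. In the low-Cr2 set, DESeq2 called 661 genes and edgeR 0 with CONV and sham libraries alone. Leaving out 1 library there gave 0 to 1134 calls, with 2 without FLASH replicate 2. For CONV against FLASH, DESeq2 called 667 and edgeR 5 without a filter, and leaving out 1 library gave 0 to 1025 calls. Where CONV replicate 1 or 3 was left out, 1 CONV library remained and takes its spread from the sham and FLASH libraries. Leaving out FLASH libraries was chosen after seeing the data.

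A fit with the replicate number as a replicate block called 0 genes in each set and in CONV against FLASH. Same-numbered CONV and sham libraries did not deviate together (r = -0.47, 0.07 and -0.31 across genes for numbers 1 to 3), so the numbers were not taken as pairs. Col1a1 turned to 0.14 under the block.

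Of 3904 alternative values of named genes, 3648 kept their direction and side of the threshold, 41 lost the call, 197 gained it and 18 changed sign; of 312 alternative list medians 70 moved by more than the spread. Signs that changed with all libraries were those of Cfd (-0.0758), Mmp19 (-0.20), Steap4 (-0.31) and Trp63 (-0.18) in limma voom. Leaving out 1 library there gave -0.16 to 0.64 for C2 (lowest without CONV replicate 1), -0.18 to 0.74 for Cfd, -0.22 to 0.64 for Mmp19 (-0.22 without CONV replicate 1, -0.05 without replicate 3), -0.14 to 0.94 for Steap4, -0.21 to 0.73 for Trp63, -0.19 to 0.54 for Gclm, -0.0831 to 0.69 for Tnfrsf10b and -0.0162 to 0.43 for Txnrd1, the lowest of Cfd and of these last 5 genes without CONV replicate 3. In the low-Cr2 set it gave -0.51 to 0.25 for Col1a1 (0.25 without CONV replicate 3, 0.24 without sham replicate 2) and -0.17 to 0.28 for Tgfb1 (-0.17 without CONV replicate 1, -0.02 without sham replicate 3). Apart from the fewer samples in each fit, the cause was not tested.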
